A study of Mus musculus with 8 samples.

Results

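Cytosolic ribosomal protein genes encode the protein parts of the ribosomes that translate nuclear-encoded mRNA. They were chosen by symbol: Rpl or Rps followed by a number and an optional final a or x, plus Rpsa, Rplp0, Rplp1 and Rplp2. Of the 24972 genes listed, 76 had such a symbol, and 75 of them had a normalized count of at least 10 in at least 4 of the 8 libraries. Only Rpl26 did not, with a count of 0 in every library but Null 2, where it was at 3.94. The 75 genes comprise 30 of the small 40S subunit, 42 of the large 60S subunit and the 3 of the 60S stalk, Rplp0, Rplp1 and Rplp2.

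The libraries were made from liver of C57BL/6J mice aged 18 weeks. At 10 weeks of age the mice had received into a vein an adeno-associated virus of serotype AAV8, and liver RNA was taken 8 weeks later. The control virus was AAV8-ALB-Null (4 libraries, Null 1 to Null 4) and the other virus was AAV8-ALB-ATF3 (4 libraries, ATF3 1 to ATF3 4). Both groups thus carried a virus, and both kept their own Atf3 gene. ATF3 is a stress-induced transcription factor of the ATF/CREB family. ALB in the names of the viruses was taken as the albumin promoter, which is active in hepatocytes. The design text gives 8 mice per group, and the labels do not say whether a library is 1 mouse or how libraries were chosen. A p-value here thus sets the group difference only against the spread of these libraries, which may be technical.

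A ribosome joins a 40S subunit, which reads the mRNA, to a 60S subunit, which forms the peptide bonds. Each subunit holds nearly every one of its proteins in a single copy, and mRNAs of these proteins are among the most abundant in growing cells. Their mRNAs begin with a run of pyrimidines (C and T in the gene), the 5′ terminal oligopyrimidine or TOP motif, through which mTORC1 and the RNA-binding protein LARP1 control their translation. In liver, hepatocytes make large amounts of secreted plasma protein on such ribosomes. Several of the genes also hold small nucleolar RNA (snoRNA) genes in their introns, whose products guide the modification of rRNA.

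The deposited values summed to between 26175086 and 28446045 normalized counts per Null library and between 23919261 and 25882965 per ATF3 library. Atf3 was at 24.2, 22.5, 24.5 and 20.3 normalized counts in the Null libraries (1 to 4) and at 5611, 5886, 7053 and 6722 in ATF3 1 to 4, as the labels say (log2 change 8.05, limma adjusted p = 5.6e-11). The 8 hepatocyte markers, Alb among them, were all detected, and 3 of them were called lower and 2 higher (median log2 change −0.41). These shares were 37.5% and 25%, against 9.82% and 11.4% of all genes at a limma adjusted p under 0.05. The 8 markers summed to 1702310 to 2867151 in Null and 2607404 to 3106829 in ATF3. Among markers of other cells, 1 of 8 endothelial genes was called lower (12.5%, against 9.82% of all genes, median −0.04). Their sums were 15487 to 17888 in Null and 14664 to 15408 in ATF3, without overlap. Of 6 cholangiocyte genes 1 was called lower (16.7%, median −0.28), with sums of 887 to 1429 in Null and 893 to 1267 in ATF3. No call was made by limma among 8 stellate cell genes (median −0.25, 2 lower at an unadjusted p under 0.05), with sums of 11288 to 14390 in Null and 10430 to 12424 in ATF3. Nor was one made among 8 Kupffer cell and macrophage genes (median 0.15, sums of 9061 to 13696 and 10502 to 15175), 6 lymphocyte genes (median 0.15, sums of 93.8 to 132 and 90.9 to 117) and 4 erythroid genes (median 0.06, sums of 8368 to 13355 and 7606 to 14027). At an unadjusted p under 0.05, 1 of these erythroid genes was higher and 0 of the Kupffer cell, macrophage and lymphocyte genes moved either way. At that cut 2162 of all 13301 genes tested were lower and 2345 higher. The 6 neutrophil markers were too low to be tested, with sums of 10.5 to 35.5 in Null and 12.1 to 25.6 in ATF3, and 2 of them were at 0 in all libraries. The part of these cells in the results that follow was not tested. In whole liver, fewer cells of a type and less RNA per cell cannot be told apart.

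Ribosomal protein mRNAs were lower in ATF3 than in Null liver for 13 of the 75 genes, and for none were they higher. Among the 13 were Rpl12, Rps12, Rpl35a, Rps24, Rps4x, Rpsa, Rpl8, Rps10, Rpl35, Rplp1 and Rpl13a. The means of these genes in ATF3 were from 19.3% to 34.9% below those in Null. A change was called at a limma p under 0.05 after Benjamini-Hochberg adjustment over all 13301 genes tested. The called share was 17.3%, against 9.82% of all genes called lower. For the higher direction the share was 0 of 75, against 11.4% of all genes. At an unadjusted p under 0.05, 37 of the 75 were lower and 0 higher, against 2162 lower and 2345 higher of all 13301 genes tested. All 4 ATF3 libraries lay below all 4 Null libraries for 20 of the genes (26.7%), against 12.6% of all genes, and above them for none, against 13.7% of all genes.

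**Figure D1:**
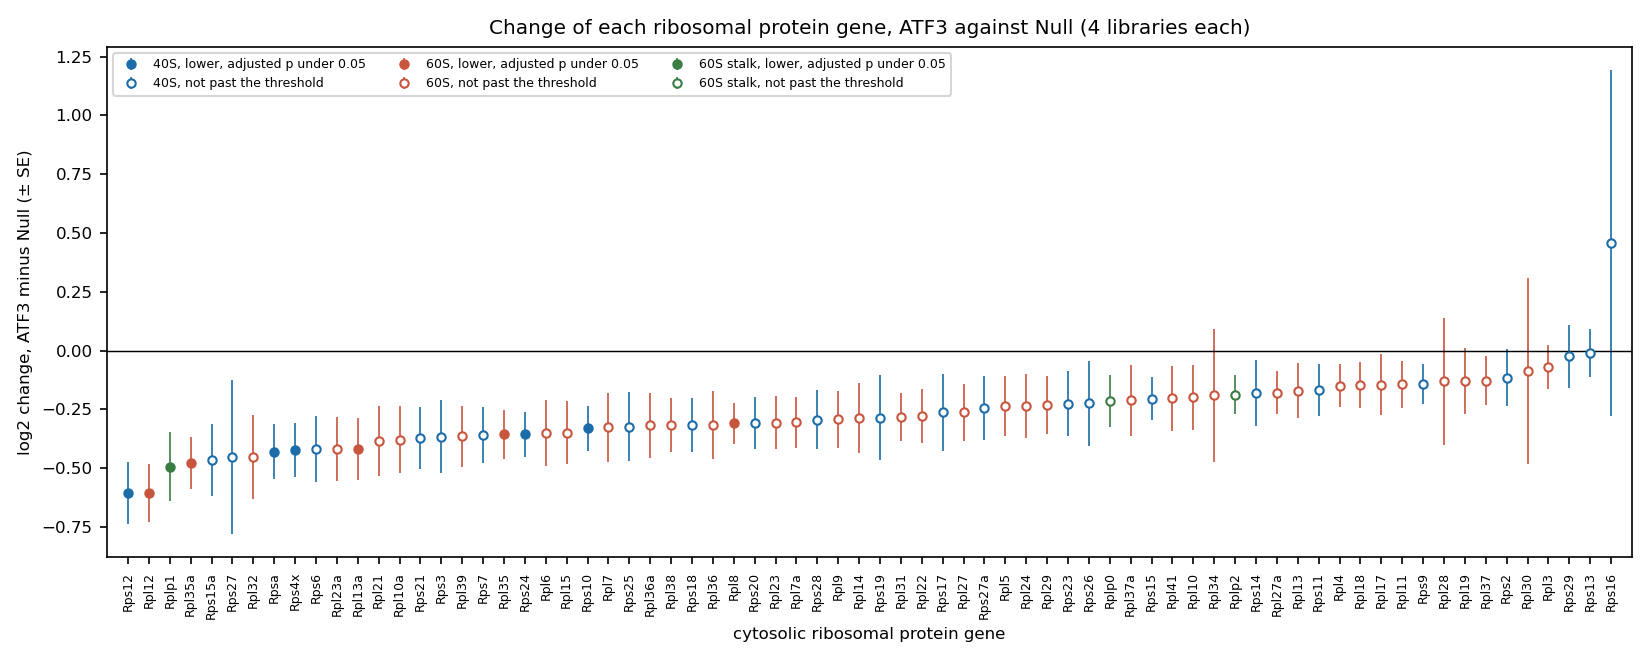
Log2 change of 72 of the 75 ribosomal protein genes, ATF3 minus Null, with its standard error (4 libraries per group), in the order of the change. Filled points mark 11 of the genes called lower, and colours mark the 40S, 60S and stalk genes. Of the estimates shown, Rps16 alone lies above 0, at 0.46 with an SE of 0.73.

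The log2 change was negative for 74 of the 75 genes, against 49.2% of all genes tested. Its median over the 75 genes was −0.29 with quartiles of −0.36 and −0.19, against a median of 0.01 over all genes with quartiles of −0.23 and 0.25. The 2 subunits had similar medians, −0.31 for the 40S genes and −0.28 for the 60S genes with the stalk. Of the 40S genes 7 of 30 were called lower (23.3%), of the 60S genes 5 of 42 (11.9%), and of the stalk genes 1 of 3 (33.3%). The share of the 60S genes was close to the 9.82% of all genes called lower. The members share libraries and are not independent, so these counts and medians are descriptions.

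The called count depended on single libraries. It was 7, 6, 19 and 19 without Null 1 to 4 in turn, against 8.03%, 7.97%, 8.07% and 13.6% of all genes called lower. Without ATF3 1 to 4 it was 4, 11, 3 and 5, against 9.38%, 7.74%, 6.40% and 6.76% of all genes. The called share of the 75 genes was thus below that of all genes without ATF3 1, ATF3 3 or ATF3 4. It was close to that of all genes without Null 2. The median ranged from −0.34 to −0.22. The settings of the fit mattered as well. With library weights 24 genes were called lower (against 16.0% of all genes), and 45 with a per-library trend on gene length removed (against 10.6%). In TPM as deposited 0 were called lower (against 0.572%), and the median of all genes was 0.68. In TPM rescaled by the median of ratios 10 were called lower (against 9.62%). Their median was then −0.28 over the 75 genes, against 0.003 over all genes. Rescaling to equal column totals left 6 called lower and a median of −0.16, and it moved the median of all genes to 0.13 and their calls from 1306 lower and 1513 higher to 837 lower and 2472 higher.

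Among the 40S genes, Rps12, a protein of the beak of the small subunit, had the largest decrease. The gene lies at chr10:23785183-23787275 on the minus strand of mm10 and holds 3 snoRNA genes. Its normalized counts were 2926, 2794, 2509 and 3812 in the Null libraries (1 to 4) and 1826, 2230, 1846 and 1939 in ATF3 1 to 4. Every ATF3 library was below every Null library, Null 4 was the highest, and the mean was 34.9% lower (log2 change −0.61, SE 0.13, limma adjusted p = 0.00876). The call held in each of the 8 fits that left out 1 library.

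Rpsa, also known as the laminin receptor and a late addition to the 40S head, is at chr9:120127689-120132369 on the plus strand and holds 3 snoRNA genes. The library values were 9447, 8900, 7943 and 10731 in Null and 6250, 7932, 6615 and 6640 in ATF3. The groups stayed apart by a narrow margin, since ATF3 2 at 7932 was just below Null 3 at 7943 (log2 change −0.43, SE 0.12, limma adjusted p = 0.025). The call was lost in 4 of the 8 fits that left out 1 library: without Null 1, ATF3 1, ATF3 3 or ATF3 4.

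Rps24, a protein needed for processing of the small subunit's rRNA and mutated in some cases of Diamond-Blackfan anaemia, lies at chr14:24487125-24496959 on the plus strand. It had counts of 5515, 4952, 4255 and 4978 in Null and 3634, 3775, 3932 and 4006 in ATF3, with Null 1 and not Null 4 the highest (log2 change −0.36, SE 0.10, limma adjusted p = 0.0246). The X-linked Rps4x, at chrX:102184941-102189394 on the minus strand, was at 4008, 3949, 3587 and 4862 in Null and 2627, 3210, 3101 and 3264 in ATF3 (log2 change −0.42, SE 0.11, limma adjusted p = 0.0247). Neither gene overlapped between groups. Rps4x lost its call without ATF3 1 or ATF3 3, and Rps24 kept its call only without Null 3 or Null 4.

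Rps10, at chr17:27630418-27636669 on the minus strand, is a head protein that ZNF598 tags with ubiquitin when ribosomes collide. Its counts were 2204, 2030, 1935 and 1868 in Null and 1436, 1790, 1596 and 1578 in ATF3 (log2 change −0.33, SE 0.10, limma adjusted p = 0.0334). The groups did not overlap, although Null 4 was the lowest of the Null libraries. Rps10 kept its call only without Null 4 or ATF3 2.

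On the 60S side, Rpl12, which lies at the base of the stalk, had the smallest adjusted p of the 75 genes. The gene is at chr2:32961559-32965345 on the plus strand and holds 1 snoRNA gene. It had 3491, 3705, 3223 and 4306 normalized counts in Null and 2039, 2812, 2431 and 2410 in ATF3. Null 4 was the highest and ATF3 1 the lowest library, the groups did not overlap, and the mean was 34.2% lower (log2 change −0.60, SE 0.12, limma adjusted p = 0.00607). Its call and that of Rpl35a held in each of the 8 fits that left out 1 library. Rpl35a, another gene mutated in Diamond-Blackfan anaemia, at chr16:33056453-33060189 on the plus strand, was at 2513, 2889, 2454 and 3038 in Null and 1651, 2096, 2101 and 1984 in ATF3 (log2 change −0.48, SE 0.11, limma adjusted p = 0.0125).

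Rpl8, at chr15:76904078-76906314 on the plus strand, lies close to the centre that forms peptide bonds. It was at 3986, 3999, 3802 and 4468 in Null and 3021, 3520, 3312 and 3258 in ATF3 (log2 change −0.31, SE 0.09, limma adjusted p = 0.0303). Rpl35, at chr2:39001580-39005624 on the minus strand, lies beside the exit of the tunnel for the growing chain. Its values were 2849, 2863, 2643 and 2762 in Null, all close together, and 1802, 2460, 2247 and 2226 in ATF3, with ATF3 1 apart (log2 change −0.36, SE 0.10, limma adjusted p = 0.0342). Rpl13a, at chr7:45125558-45128761 on the minus strand with 4 snoRNA genes inside, can leave the ribosome and silence the translation of inflammatory mRNAs. It was at 4248, 4425, 4019 and 5908 in Null and 2979, 3762, 3525 and 3552 in ATF3 (log2 change −0.42, SE 0.13, limma adjusted p = 0.0464). The groups of all 3 genes did not overlap, and their calls rested on most of the libraries. Rpl8 stayed called only without Null 3, Null 4 or ATF3 2, Rpl35 only without Null 4 or ATF3 2, and Rpl13a only without Null 3 or Null 4.

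The stalk binds the factors that drive elongation. Rplp1, an acidic stalk protein at chr9:61913284-61914542 on the minus strand, was at 3591, 3864, 3692 and 5532 in Null and 2655, 3446, 2803 and 2813 in ATF3. The groups did not overlap, with Null 4 far above the other Null libraries (log2 change −0.49, SE 0.15, limma adjusted p = 0.0372), and the call was lost without Null 2, ATF3 1, ATF3 3 or ATF3 4. Its partner Rplp2 was at 1769, 1864, 1548 and 1700 in Null and 1494, 1502, 1512 and 1523 in ATF3, which also did not overlap, with a log2 change of −0.19 (SE 0.08, limma adjusted p = 0.146). Rplp0, which anchors both to the 60S subunit, had a log2 change of −0.22 (SE 0.11, limma adjusted p = 0.200).

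**Figure D2:**
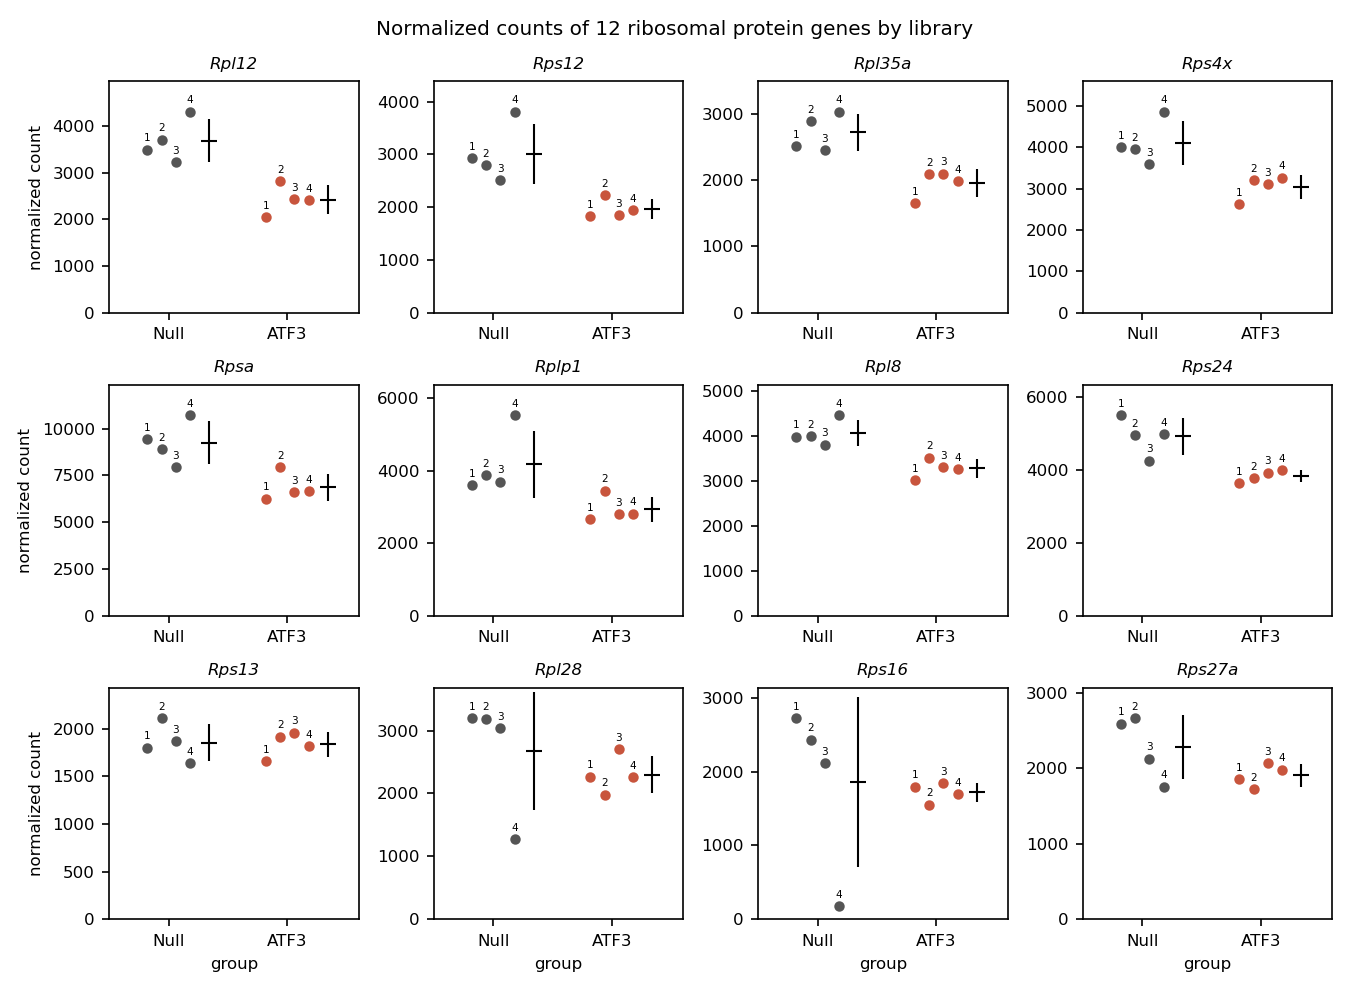
Normalized counts of 12 ribosomal protein genes in each library, numbered 1 to 4 within Null (grey) and ATF3 (red), with the mean and SD of each group beside the points. In the 8 upper panels every ATF3 point lies below every Null point. In the panels of Rpl28 and Rps16 the point of Null 4 lies far below the other Null points.

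The start sites of the called genes are shown because pyrimidine runs there are the feature these genes are known for. Each window runs from 10 bases before to 20 bases from the start of the gene in RefSeq (GRCm38.p6), read 5′ to 3′ on the gene's strand, and the capitals mark its longest run of C and T. The table held 55 of the 75 genes, among them 9 of the 13 called.
Rpl12, chr2:32961702-32961731, plus strand: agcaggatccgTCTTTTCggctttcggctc
Rpl13a, chr7:45128726-45128755, minus strand: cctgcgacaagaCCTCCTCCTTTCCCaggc
Rpl35, chr2:39005112-39005141, minus strand: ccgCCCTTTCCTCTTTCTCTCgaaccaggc
Rpl35a, chr16:33056443-33056472, plus strand: gcgtgcgTCCCacaaggccgcgcggcgggg
Rps10, chr17:27635225-27635254, minus strand: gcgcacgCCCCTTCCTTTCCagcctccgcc
Rps12, chr10:23787190-23787219, minus strand: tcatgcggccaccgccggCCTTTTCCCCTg
Rps24, chr14:24490668-24490697, plus strand: gctggggTCCTTCCTTgcgcgttgatatga
Rps4x, chrX:102189372-102189401, minus strand: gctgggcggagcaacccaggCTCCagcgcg
Rpsa, chr9:120127756-120127785, plus strand: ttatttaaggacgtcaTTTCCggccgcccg
Rps13 and Rpl28, which were not called, are shown beside them for comparison.
Rps13, chr7:116334171-116334200, minus strand: caaacgtcggtgagtggcgtcaCTTCCTgt
Rpl28, chr7:4792955-4792984, plus strand: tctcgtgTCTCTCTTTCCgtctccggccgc

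A run of at least 7 pyrimidines was found in this window for 26 of the 55 genes (47.3%), against 17.6% of the 10412 tested genes in the table, and the median longest run was 6 against 4 bases. Of the 26 genes with such a run 6 were called lower (23.1%, against 9.82% of all genes) and the median log2 change was −0.32. Of the 29 genes with a shorter run 3 were called lower (10.3%, close to the share of all genes) and the median was −0.24. A link between the run and the change was not tested. Among the called genes Rpl35 had the longest run, 18 bases, and Rpl35a and Rps4x had runs of 4 bases. Start sites as annotated may differ from those used in liver, which these libraries do not give.

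ATF3 belongs to a family that binds the letters TGACGTCA, the cAMP response element (CRE), so the 300 bases from 250 before to 50 after each start were searched for it on both strands. Of the 55 genes 4 held it (7.27%), against 3.13% of the tested genes in the table. The windows below show these 4 places, with the letters of the match in capitals.
Rpl13, chr8:123102315-123102344, plus strand: gcgggttcgcgTGACGTCActtccctttcg
Rpl18, chr7:45717981-45718010, plus strand: tcgcgctcatgTGACGTCAcccgtgcacca
Rpl27a, chr7:109519087-109519116, plus strand: gccgggagccgTGACGTCAggagcccttcc
Rps9, chr7:3703973-3704002, plus strand: gcggtgcgtgaTGACGTCActacaaggcga
None of the 4 was called, and of the 51 genes without a match 9 were called lower (17.6%, against 9.82% of all genes). The median log2 change was −0.16 for the 4 and −0.29 for the 51. With only 4 genes the absence of a call cannot tell the 2 sets apart, and a difference was not tested. In Rpl13 the match began 24 bases before the start, in Rps9 57, in Rpl18 79 and in Rpl27a 97. The shorter TGACG, which lies within TGACGTCA, was in 28 promoters (50.9%, against 31.3% of tested genes). The AP-1 letters TGACTCA were in 2 (3.64%, against 3.74%). The ETS letters CCGGAAGT were in 10 (18.2%, against 8.17%), the YY1 letters AAGATGGC in 4 (7.27%, against 4.59%) and the E-box CACGTG in 5 (9.09%, against 10.2%). A match is a string of letters and says nothing of binding, which was not measured here.

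The sum over the 75 genes shows how much of the pattern each library carried. The sums were 246605, 244888, 221872 and 289349 normalized counts in the Null libraries (1 to 4) and 181915, 225621, 207991 and 206604 in ATF3 1 to 4. The groups overlapped, because ATF3 2 was above Null 3, while Null 4 was the highest library and ATF3 1 the lowest. The mean sum was 250679 ± 28139 (SD, n = 4) in Null and 205533 ± 17968 (SD, n = 4) in ATF3, which is 18.0% lower. It was 19.1% lower for the 40S genes and 17.4% lower for the 60S genes with the stalk.

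**Figure D3:**
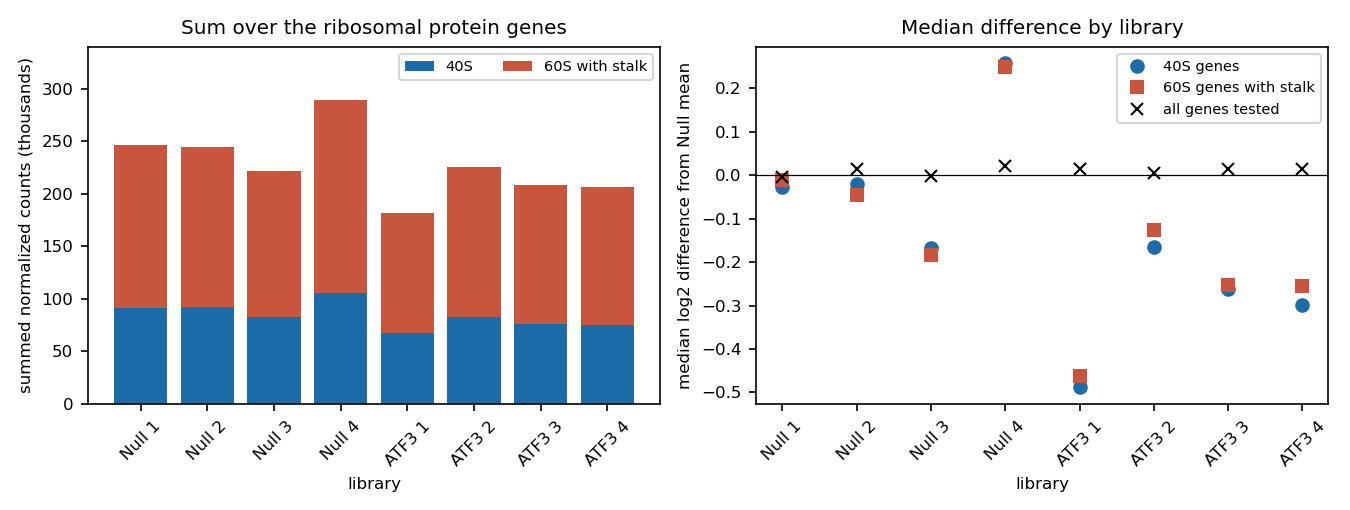
Left, summed normalized counts of the 40S genes and of the 60S genes with the stalk in each library. Right, the median log2 difference from the Null mean in each library for both subunits and for all genes tested. Null 4 is the highest and ATF3 1 the lowest library for both subunits, while the median of all genes stays near 0 in every library.

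The ribosomal protein genes held 0.897%, 0.897%, 0.848% and 1.02% of the normalized counts in the Null libraries (1 to 4) and 0.761%, 0.872%, 0.814% and 0.834% in ATF3 1 to 4. The median log2 difference of the genes from their Null means was −0.02, −0.04, −0.18 and 0.25 in Null and −0.48, −0.16, −0.26 and −0.26 in ATF3. On this scale ATF3 2 lay above Null 3 as well, and the other 3 ATF3 libraries lay below all Null libraries. The 40S and 60S genes moved together within each library.

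Null 4 held the highest value for 54 of the 75 genes, and ATF3 1 the lowest for 62. Without these 2 libraries, a choice made after the data were seen, the median change was −0.16 and the mean sum was 10.3% lower in ATF3. The share of all genes called lower rose from 9.82% to 15.8%, and 17 of the 75 genes were called lower. Of the 13 genes called with all libraries, 12 were among these 17. The exception was Rpl13a. Sums of 3 marker lists had the same order, highest in Null 4 among Null and lowest in ATF3 1 among ATF3 libraries: hepatocyte (2867151 and 2607404), lymphocyte (132 and 90.9) and neutrophil (35.5 and 12.1). Kupffer cell and macrophage markers were highest within their groups in both libraries, at 13696 and 15175. Cholangiocyte markers were lowest among Null libraries in Null 4 (887), and erythroid markers lowest among ATF3 libraries in ATF3 1 (7606). The part of these cells in the ribosomal protein values was not tested.

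**Figure D4:**
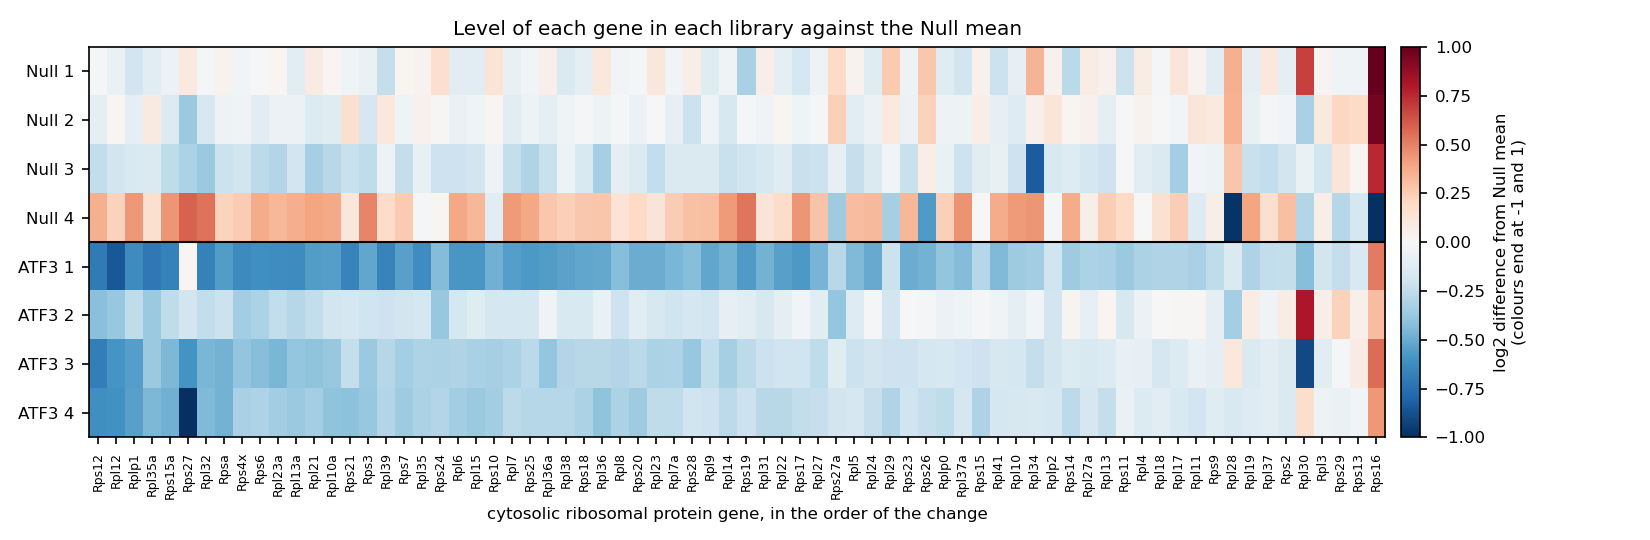
Log2 difference of 72 ribosomal protein genes from their Null means in each of the 8 libraries, with genes in the order of the change and colours ending at −1 and 1. Null 4 is mostly red and ATF3 1 mostly blue. In Null 4 single genes such as Rps16, Rpl28 and Rps26 are deep blue against the red of their neighbours.

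Null 4 did not raise every gene. It was above the mean of Null 1 to 3 for 60 genes and below it for 15, with a median log2 difference of 0.34. Across the 72 genes with a mean of at least 100 counts, the correlation of log2 levels between Null 4 and Null 1 to 3 was at most 0.803, while Null 1 to 3 correlated with each other at 0.977 or more. These points share libraries and the base level of each gene, so the values only describe how the profiles differ. The median coefficient of variation was 15.2% over the 4 Null libraries and 7.22% over Null 1 to 3, and it was 6.38% over ATF3 2 to 4.

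The lowest genes of Null 4 were 40S and 60S genes alike. Rps16, whose tail reaches the tRNA in the P site, was at 2730, 2437, 2114 and 174 in Null and at 1801, 1553, 1847 and 1696 in ATF3. Null 1 to 3 were all above the 4 ATF3 libraries, and Null 4 was far below them. The log2 change of Rps16 was 0.46 (SE 0.73, limma adjusted p = 0.707), and without Null 4 it was −0.49 (SE 0.10, limma adjusted p = 0.00663). Rpl28, a 60S protein, showed the same picture, with 3198, 3188, 3035 and 1269 in Null and 2266, 1979, 2699 and 2257 in ATF3. Its log2 change was −0.13 (SE 0.27, limma adjusted p = 0.777) and without Null 4 it was −0.46 (limma adjusted p = 0.00903).

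Rps26, Rpl29 and the ubiquitin fusion Rps27a also had their lowest Null value in Null 4. Rps26, which lines the mRNA exit of the 40S subunit, was at 2401, 2331, 2077 and 1341 in Null and 1434, 1958, 1763 and 1691 in ATF3. Its log2 change went from −0.22 (limma adjusted p = 0.420) to −0.41 without Null 4 (limma adjusted p = 0.0195). For Rpl29 it went from −0.23 (limma adjusted p = 0.214) to −0.34 (limma adjusted p = 0.0158), and for Rps27a from −0.24 (limma adjusted p = 0.240) to −0.36 (limma adjusted p = 0.025). Rpl28, Rps26 and Rpl29 were picked after their values in Null 4 were seen.

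Just outside the threshold stood Rpl23a (limma adjusted p = 0.0544), Rps15a (0.0567), Rps6 (0.0568) and Rps7 (0.0593), and just inside it Rplp1 (0.0372) and Rpl13a (0.0464). Rps6, the substrate that gives S6 kinase its name, was at 7282, 6703, 6035 and 9392 in Null and 4728, 5809, 5389 and 5859 in ATF3, which did not overlap, with a log2 change of −0.42 (SE 0.14). Separate groups without passing the threshold were also found for Rpl7a, Rpl31, Rpl38, Rpl9 and Rplp2.

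Other members with roles of their own gave smaller or less certain estimates. Rpl5 and Rpl11, which with the small rRNA of the 60S subunit can bind and inhibit MDM2, had log2 changes of −0.24 (SE 0.13, limma adjusted p = 0.224) and −0.14 (SE 0.10, limma adjusted p = 0.349). Rpl23, another MDM2 partner, was at −0.31 (limma adjusted p = 0.0793). Rps19, the gene most often mutated in Diamond-Blackfan anaemia, was at −0.28 (SE 0.18, limma adjusted p = 0.301). Rpl10, which joins the 60S subunit last, was at −0.20 (limma adjusted p = 0.353), Rpl39 of the exit tunnel at −0.36 (limma adjusted p = 0.0703) and Rps18 at −0.32 (limma adjusted p = 0.0811). Rpl22 was at −0.28 (limma adjusted p = 0.116) and the X-linked Rpl36a at −0.32 (limma adjusted p = 0.135). None of these passed the threshold, and each was estimated below 0.

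The estimates nearest to 0 were those of Rps13, Rps29 and Rpl3. Rps13 was at 1803, 2114, 1871 and 1641 in Null and 1664, 1918, 1961 and 1819 in ATF3, fully interleaved, with a log2 change of −0.01 (SE 0.10, limma adjusted p = 0.958). Rps29, a small zinc-binding protein, was at 1815, 2165, 2035 and 1531 in Null and 1582, 2191, 1850 and 1788 in ATF3 (log2 change −0.02, SE 0.13, limma adjusted p = 0.923). Rpl3, near the centre that forms peptide bonds, was at 4573, 4805, 3961 and 4702 in Null and 3967, 4711, 4162 and 4338 in ATF3 (log2 change −0.07, SE 0.10, limma adjusted p = 0.655). Rps2 was at −0.12 (SE 0.12). The sign of Rps13 and Rps29 turned with column-total, upper-quartile or quantile scaling, and that of Rps2 and Rpl3 with column-total scaling.

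Levels were compared between genes on the TPM scale, which is per transcript length, after rescaling the deposited TPM by the median of ratios. The highest were Rpl38 at 1074 ± 129 in Null and 863 ± 91.3 in ATF3, Rpl41 at 855 ± 161 and 738 ± 84.9, Rplp1 at 625 ± 137 and 439 ± 52.8, and Rpl10 at 518 ± 112 and 446 ± 32.7 (SD, n = 4). In Null each of these levels differed from the next by less than the sum of their SDs. The lowest were Rps27 at 2.04 ± 0.74 in Null, Rpl30 at 2.14 ± 0.80, Rpl34 at 3.13 ± 1.12 and Rps15a at 10.1 ± 2.32. In normalized counts Rps15a was at 1132 to 1838 in Null, and its longest annotated transcript has 5179 bases. The length behind its TPM is not given in the sources used here.

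The lowest members other than Rps15a have a near copy elsewhere in the genome that is listed with high counts. Rpl26, which was not tested, shares 45.9% of its 31-base stretches with Gm15772, which was at 3721, 3582, 3193 and 5268 in Null and 2461, 3471, 2849 and 2966 in ATF3 (log2 change −0.41, limma adjusted p = 0.0985). Rps27, at 9 to 30 counts in the 8 libraries, shares 49.8% with Rps27rt, which was at 1701, 1727, 1599 and 2690 in Null and 1155, 1567, 1476 and 1424 in ATF3 (log2 change −0.43, limma adjusted p = 0.0956). Rpl30 shares 25.7% with Gm12191 (log2 change −0.21, limma adjusted p = 0.198) and Rpl34 13.3% with Rpl34-ps1 (log2 change −0.18, limma adjusted p = 0.298). How reads were divided between a gene and its copy is not given in the sources used here, so the values of these 4 members are uncertain.

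Shared sequence is common in this family. The median gene had 44.5% of its 31-base stretches in transcripts of other genes, and Rpl36 had the most, 94.1%. Of 18 genes with under 25% shared stretches 3 were called lower (16.7%, median log2 change −0.31). Of 32 with 25% to 50% it was 6 (18.8%, median −0.22), and of 25 with at least 50% it was 4 (16%, median −0.32). Of all genes 9.82% were called lower. Among the called genes Rpl8 had 8.05% shared stretches, while Rpl12 had 49.8%, Rps12 69.3%, Rplp1 75.1% and Rps4x 78.4%. A snoRNA gene lay inside 29 of the 75 genes, 56 snoRNA genes in all. Of these 29 genes 5 were called lower (17.2%, median −0.30), and of the 46 without one 8 were called lower (17.4%, median −0.29). Differences between these classes were not tested.

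Related genes, pseudogenes and fusions that the symbol rule left out did not all move with the 75 genes. Rps4l, which GENCODE annotates as a transcribed processed pseudogene, was higher in ATF3, with 228, 253, 268 and 151 normalized counts in Null and 365, 366, 273 and 339 in ATF3 (log2 change 0.60, SE 0.18, limma adjusted p = 0.0431). All ATF3 libraries were above all Null libraries, opposite in direction to Rps4x, and the call was lost without Null 1, Null 2, ATF3 1, ATF3 2 or ATF3 4. Rack1, a scaffold on the 40S head, was at 4128, 4271, 3888 and 5639 in Null and 3118, 3795, 3419 and 3438 in ATF3, without overlap (log2 change −0.37, SE 0.12, limma adjusted p = 0.0598). Further log2 changes were −0.43 for Rps27rt, −0.31 for Rps3a1, −0.18 for Rpl22l1, −0.12 for Rps19bp1, −0.10 for Rpl36al, −0.04 for the Rps30 fusion Fau, 0.02 for Rpl7l1 and 0.25 for Rps27l, and none passed the threshold. Rpl3l, Rpl10l and Rpl39l were too low to be tested.

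Of the other genes whose mRNAs carry TOP motifs, 0 of 20 were called (against 9.82% lower and 11.4% higher of all genes). At an unadjusted limma p under 0.05, 4 of the 20 were lower, against 2162 of all 13301 genes tested. All 20 had a negative log2 change, with a median of −0.12. Rack1 is among them. Npm1, a nucleolar chaperone, was at 3229, 3018, 2386 and 2615 in Null and 1977, 2276, 2348 and 2337 in ATF3 (log2 change −0.32, limma adjusted p = 0.0672). Eef1g, a subunit of elongation factor 1, was at 3352, 3207, 3198 and 3458 in Null and 2503, 2902, 3070 and 2756 in ATF3 (log2 change −0.24, limma adjusted p = 0.0822). Neither gene overlapped between groups, and Npm1 was called lower without Null 3 or Null 4. Pabpc1, the cytoplasmic poly(A)-binding protein, did overlap, with 6682, 4666, 4205 and 3099 in Null and 4634, 2338, 2714 and 2688 in ATF3 (log2 change −0.59, limma adjusted p = 0.13). Without Null 4, 5 of the 20 were called lower, against 13.6% of all genes.

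Translation factors moved in both directions. Of 44 initiation and termination factors 3 were called lower and 3 higher (6.82% each way, against 9.82% and 11.4% of all genes), with a median log2 change of −0.04. Eif1a, which helps the 40S subunit find the start codon, was at 1414, 1347, 1419 and 1212 in Null and 839, 862, 881 and 795 in ATF3 (log2 change −0.67, SE 0.09, limma adjusted p = 0.000449). Eif5, which acts at the same step, had a log2 change of −0.54 (limma adjusted p = 0.00288). Eif6, which keeps free 60S subunits from joining and takes part in their assembly, was at 705, 726, 723 and 946 in Null and 1158, 1344, 1253 and 1373 in ATF3 (log2 change 0.73, SE 0.11, limma adjusted p = 0.0014), and Eif1b was higher by 0.49 (limma adjusted p = 0.0182), a call lost without ATF3 3 or ATF3 4. Of 8 elongation factors 1 was higher (12.5%, against 11.4% of all genes), Eef2k, the kinase that inhibits Eef2 (log2 change 0.27, limma adjusted p = 0.0469), and 0 were lower. At an unadjusted limma p under 0.05, 2 of the 8 were lower, against 2162 of all 13301 genes tested. Eef2k lost its call in each fit that left out 1 library.

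**Figure D5:**
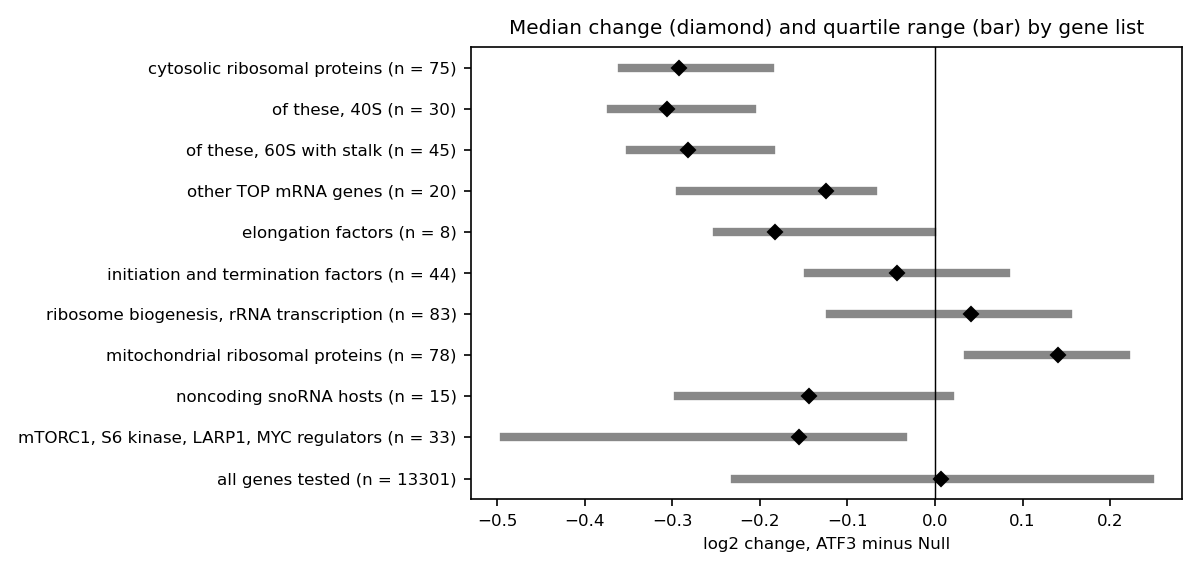
Median (diamond) and quartile range (bar) of the log2 change, ATF3 minus Null, over the tested genes of each list. The bar of the 75 cytosolic ribosomal protein genes lies wholly below 0, with a median of −0.29. The bar of the 78 mitochondrial ribosomal protein genes lies above 0, with a median of 0.14.

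Of 83 genes of ribosome assembly and rRNA transcription 2 were lower and 2 higher (2.41% each way, below the 9.82% and 11.4% of all genes), with a median of 0.04. All 4 belong to the machinery of RNA polymerase I, which transcribes rRNA genes. Rrn3, its initiation factor, was at 1333, 926, 1384 and 1487 in Null and 793, 755, 730 and 789 in ATF3 (log2 change −0.72, limma adjusted p = 0.00493), and Taf1d had a log2 change of −0.69 (limma adjusted p = 0.00195). Taf1c, at 33.4, 33.1, 36.3 and 29.4 in Null and 56.6, 65.5, 69.8 and 56.9 in ATF3, had a log2 change of 0.89 (limma adjusted p = 0.00339), and Taf1b one of 0.60 (limma adjusted p = 0.034), which was not called without Null 1, ATF3 2, ATF3 3 or ATF3 4. Of 15 noncoding snoRNA host genes 3 were lower and 1 higher (20% and 6.67%, against 9.82% and 11.4% of all genes), with a median of −0.14. Snhg8 (−0.54), Snhg1 (−0.64) and Epb41l4aos (−0.59) were the lower ones on the log2 scale (limma adjusted p = 0.0279, 0.035 and 0.0469), and Snhg11 was higher by 1.08 (limma adjusted p = 0.00141). Of these 4 genes Snhg11 alone stayed called whichever single library was left out: Snhg8 lost its call without Null 1, Null 2, Null 3, ATF3 1 or ATF3 2, Snhg1 without Null 1, ATF3 1, ATF3 3 or ATF3 4, and Epb41l4aos without any library but Null 4.

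Of 33 genes around mTORC1, S6 kinase, LARP1 and MYC, which control the output of ribosomal protein mRNAs, 9 were lower and 2 higher (27.3% and 6.06%, against 9.82% and 11.4% of all genes). The lower genes include inhibitors as well as targets of the pathway. Deptor, an mTOR inhibitor, was at 11082, 8939, 8660 and 8969 in Null and 6259, 4902, 4943 and 4246 in ATF3 (log2 change −0.89, SE 0.13, limma adjusted p = 0.000947). Tsc1, another inhibitor of mTORC1, was at 1311, 1309, 1250 and 1361 in Null and 938, 915, 736 and 799 in ATF3 (log2 change −0.63, limma adjusted p = 0.00141). Eif4ebp1, which binds the cap-binding protein until mTORC1 phosphorylates it, had a log2 change of −0.70 (limma adjusted p = 0.00229), and Mlx, a partner of the MYC-related glucose sensor ChREBP, one of 0.64 (limma adjusted p = 0.00102). These are mRNA levels, and the activity of the pathway was not measured.

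Of 12 genes for the rescue of stalled ribosomes and the MDM2 axis 2 were lower and 0 higher by limma (16.7% and 0%, against 9.82% and 11.4% of all genes). At an unadjusted p under 0.05, 0 of the 12 were higher, against 2345 of all 13301 genes tested. Hbs1l, a rescue factor, was at 2197, 2123, 2266 and 2574 in Null and 1569, 1621, 1672 and 1681 in ATF3 (log2 change −0.48, limma adjusted p = 0.00316). Zfp598, the mouse ZNF598 that marks Rps10 on collided ribosomes, had a log2 change of −0.62 (limma adjusted p = 0.0109). The 78 mitochondrial ribosomal protein genes, which serve translation of mitochondrial genes, had a median of 0.14, and 14 of them had a negative log2 change. Of these 78 genes 4 were higher and 1 lower (5.13% and 1.28%, below the 11.4% and 9.82% of all genes), with examples in Mrpl16 at 0.53 (limma adjusted p = 0.0195), Mrps27 at 0.57 (limma adjusted p = 0.0359) and the lower Mrpl52 at −0.33 (limma adjusted p = 0.034). Mrpl16 lost its call without Null 1, ATF3 3 or ATF3 4, Mrps27 kept its call only without Null 2 or Null 4, and Mrpl52 only without Null 1 or Null 4. The difference between the cytosolic and mitochondrial lists was not tested.

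Counts in these lists also moved with single libraries. Without Null 4 calls rose among all 13301 genes tested as well, to 1812 lower (13.6%) and 1965 higher. The called counts in that fit were 9 lower of 44 initiation and termination factors, 14 lower of 33 mTORC1-related genes and 12 higher of 78 mitochondrial genes. Leaving out 1 library at a time gave 0 to 5 lower TOP genes, 2 to 9 lower initiation and termination factors, 0 to 3 lower snoRNA hosts, 2 to 5 lower assembly genes, 7 to 14 lower mTORC1-related genes and 0 to 12 higher mitochondrial genes. Over the same fits 851 to 1812 of all genes were called lower and 1040 to 1965 higher.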

How the data were processed

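Liver RNA was extracted with a mirVana kit and sequenced from stranded total RNA libraries, per the labels' protocols. Bowtie2 and the mm10 build are named per the submitters' processing notes; no source used here gives the quantifier or annotation. One deposited table holds a signal, gene-level read estimates that the authors scaled between libraries (DESeq by its name), and the other holds TPM from the authors. The TPM of 26 genes with names turned into dates were left out. Mir6236 held 0.308% to 89.4% of the TPM per library, so TPM were rescaled by the median of ratios for levels. The signal is not whole reads, so no count model was run. limma 3.58.1 (eBayes with a trend, R 4.3.3, two-sided) was fitted to log2(normalized count + 1) of the 13301 genes that reached 10 in 4 or more libraries; p-values were adjusted by Benjamini-Hochberg and called under 0.05. The value added understates changes of low genes. Reads behind single values are unknown, so no counting interval is given. Libraries were grouped by the virus in their labels. Positions are from GENCODE on mm10 and promoters from RefSeq's GRCm38.p6 table. The fit was tested on simulated data. The members and lists were chosen with earlier results of these data known. Some genes are not reported here one by one, and they stayed in the fit, counts, sums and medians. Otherwise named were the called genes, the 6 highest and 6 lowest changes, the 4 highest and 4 lowest TPM, a fixed list of members, up to 4 genes per other list by p, and tested paralogues. Alternatives changed the value added, filter, scaling, table, weights, length trend and libraries.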

Additional observations from a re-analysis of the deposited data

Results flagged for a closer look

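In 7 of 144 groups of 4 libraries (72 genes, 2 groups), 1 library lay far from the other 3 by Dixon's criterion, and chance gives about 1 in 20. In 5 of the 7 that library was Null 4. Null 4 was the highest of its group for Rpl10 (10856.5 normalized counts, nearest 7631.69), Rpl24 (2945.39, nearest 2256.42), Rplp0 (7431.01, nearest 6060.11) and Rplp1 (5531.99, nearest 3863.78). It was the lowest for Rpl28 (1268.71, nearest 3035.24). Null 3 was the lowest of its group for Rpl27a (4410.96, nearest 5107.36), and ATF3 1 for Rps9 (2908.75, nearest 3200.62). Of these genes Rplp1 was called lower, and it stayed called without Null 4.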

How the results depend on the processing

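No member was called higher in any of 23 other settings, and the median log2 change of the 75 genes stayed negative in all of them but 1. With TPM as deposited, that median was 0.70 against 0.68 for all genes, and 0 members were called. With TPM rescaled by the median of ratios it was −0.28 against 0.003 for all genes, and 10 members were called lower. The count of members lower was 13 in the main fit, where 9.82% of all genes were lower. It was 6 with column totals (6.29% of all genes) and 24 with library weights (16.0% of all genes). It was 45 with a per-library trend on gene length removed (10.6% of all genes) and 0 in deposited TPM (0.572% of all genes). Leaving out 1 library gave 3 to 19, with 6.40% to 13.6% of all genes called lower, and the median of the 75 genes then ranged from −0.34 to −0.22. Of 1801 single-gene alternatives for 82 genes, 1514 kept sign and call, 139 lost the call, 52 gained it and 96 turned sign, 65 of them in deposited TPM with none called there. Those log2 changes in deposited TPM were Rpl12 0.40, Rps12 0.40, Rpl35a 0.53, Rps24 0.64, Rps4x 0.58, Rpsa 0.57, Rpl8 0.69, Rps10 0.67, Rpl35 0.65, Rplp1 0.51, Rpl13a 0.58, Rps15a 0.40, Rps2 0.89, Rpl30 0.57, Rpl3 0.92, Rps29 0.98, Rps13 0.99, Rps27 0.22, Rpl34 0.50, Rpl10 0.81, Rpl41 0.80, Rpl38 0.69, Rpl5 0.76, Rpl11 0.85, Rpl23 0.69, Rpl22 0.68, Rpl36a 0.68, Rpl39 0.64, Rps27a 0.75, Rps6 0.58, Rps19 0.72, Rplp0 0.78, Rplp2 0.82, Rps18 0.69, Rpl28 0.87, Rps26 0.78, Rpl29 0.76, Rack1 0.63, Npm1 0.67, Eef1g 0.75, Pabpc1 0.40, Snhg8 0.29, Snhg1 0.31, Epb41l4aos 0.36, Eif1a 0.28, Eif5 0.46, Eefsec 0.52, Eef1d 0.71, Taf1d 0.25, Rrn3 0.20, Deptor 0.092, Tsc1 0.21, Eif4ebp1 0.28, Hbs1l 0.47, Zfp598 0.31, Rps27rt 0.57, Mrpl52 0.66, Rpl22l1 0.78, Rpl36al 0.90, Rps3a1 0.69, Fau 0.96, Rps19bp1 0.72, Rpl34-ps1 0.83, Gm15772 0.60, Gm12191 0.79. Column totals turned Rps2 (0.013), Rpl30 (0.034), Rpl3 (0.059), Rps29 (0.10), Rps13 (0.12), Rpl36al (0.027), Fau (0.086), Rps19bp1 (0.0093). Upper-quartile scaling turned Rps29 (0.011), Rps13 (0.024). Quantile scaling turned Rps29 (0.0026), Rps13 (0.020). Library weights turned Rps16 (−0.23), Rpl34 (0.013). Removal of a length trend turned Rpl7l1 (−0.0093). Leaving out both Null 4 and ATF3 1 turned Rps2 (0.026), Rps16 (−0.51), Rpl34 (0.0078), Rpl41 (0.0015), Rpl36al (0.067). Where leaving out 1 library turned a sign, the range over these fits was Rpl30 from −0.39 to 0.19, Rps29 from −0.12 to 0.049, Rps13 from −0.067 to 0.054, Rps16 from −0.49 to 0.83, Rpl7l1 from −0.0062 to 0.062, Fau from −0.12 to 0.016. Only Rps16 was called after turning. The cause of these shifts was not tested. No paired analysis was possible because no label pairs libraries of the groups, and replicate numbers were given in order. The number of libraries, 4 per group, limits the precision.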
